A study of Mus musculus with 17 samples.

Results

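Nanog-null mouse embryonic stem cells (ESC) were compared with wild-type (WT) ESC of the same strain by RNA sequencing, in 4 of the 17 samples of the series. The 2 Nanog-null samples and the 2 WT samples were chosen by their titles, and no other sample entered the fit. Both groups carry the strain label 129/B6 (v6.5). The Nanog-null ESC (genotype Nanog -/-) were at passage 6 and the WT ESC at passages 10 to 15. Per the labels' protocols, the Nanog-null line came from another laboratory, carries a constitutive GFP marker and was kept on feeder cells, which are fibroblasts, in 2i and LIF. 2i is a pair of inhibitors of MEK and GSK3, and LIF is a cytokine that sustains self-renewal. The labels do not say how the WT ESC were cultured or whether the Nanog-null line derives from them, so genotype, line, laboratory of origin, passage and culture cannot be told apart. The series asks whether fibroblasts can be reprogrammed without Nanog, and the Nanog-null ESC are the line from which its Nanog-null fibroblasts were made.

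Nanog encodes a homeodomain transcription factor of the inner cell mass. Together with Oct4 (encoded by Pou5f1) and Sox2 it binds many enhancers of pluripotent cells, and it supports the naive state of ESC, which resembles the epiblast before implantation. ESC without Nanog can be propagated, but they are known to differentiate more readily, in particular towards primitive endoderm. The naive state is held by LIF, which acts through STAT3, and by low FGF and ERK signalling. FGF4 from the ESC themselves drives ERK and the exit from this state.

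The files held 20368476 and 43501951 fragments assigned to genes in the Nanog-null samples and 25632741 and 20781468 in the WT samples. Levels are given as FPKM, fragment counts scaled to transcript length and library size. Differences are log2 fold changes of Nanog-null over WT ESC ± SE, from edgeR's quasi-likelihood test on the fragment counts with Benjamini-Hochberg adjustment. A gene is said to have risen or fallen where its adjusted p was under 0.05, and the largest adjusted p of a gene named by the rule in the methods was 0.0034. Of 15837 genes tested, 6361 rose (40.2%) and 6374 fell (40.2%), together 80.4%. In 87.8% the samples of the groups did not overlap. Passing the test therefore sets few genes apart, and the counts below use genes that also changed at least 2-fold. These were 5220 genes (33.0%), of which 3061 rose (19.3% of all tested) and 2159 fell (13.6%). The fold changes come from counts and the levels from FPKM, in which the authors' software weighs isoforms of different lengths, so the ratio of the levels can differ from the fold change given. With 2 samples a group, and with no label that the samples came from separate cultures, these p-values measure the spread between these libraries only.

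**Figure D1:**
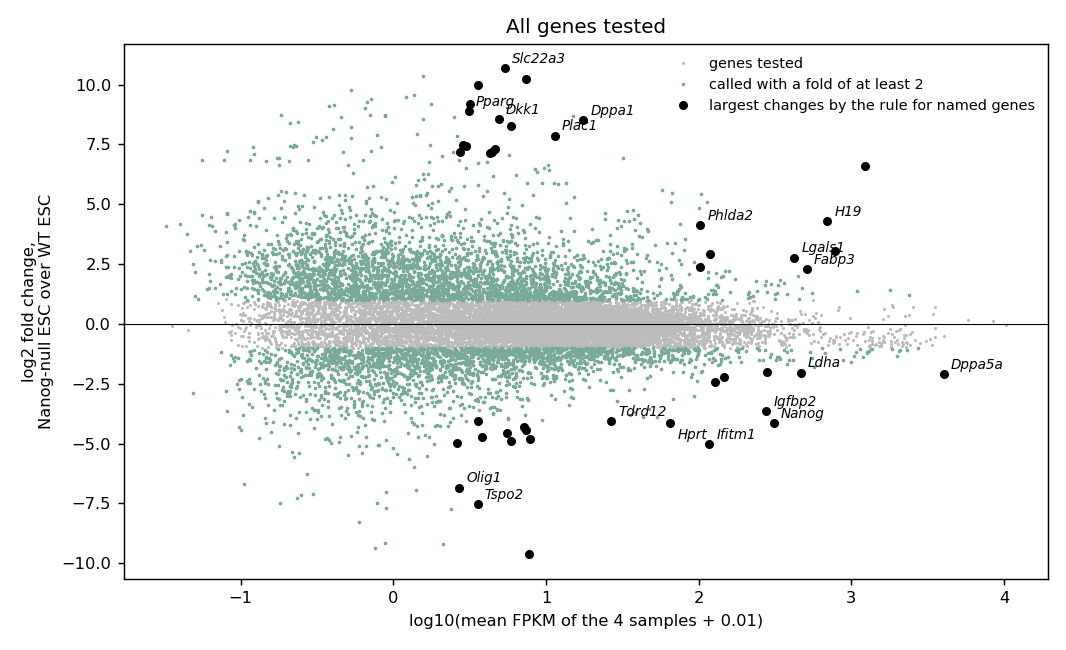
Every gene tested, with the log10 of its mean FPKM over the 4 samples plus 0.01 on the horizontal axis and its log2 fold change, Nanog-null ESC over WT ESC, on the vertical axis. Green points are the 5220 genes called with a fold of at least 2, black points the largest changes chosen by the rule for named genes, and Nanog and Hprt lie together at -4.15.

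The 5th and 95th percentiles of the log2 fold change were -1.80 and 2.72, and the median was 0.00. A change of at least 8-fold (3 on the log2 scale) was seen in 614 genes that rose and 246 that fell. Of the genes that rose at least 2-fold, 60.2% had a mean below 1 FPKM in WT ESC. Of those that fell at least 2-fold, 48.3% had a mean below 1 FPKM in Nanog-null ESC.

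RNA of the targeted gene Nanog stood at 45.8 and 49.5 FPKM in Nanog-null ESC, against 568 and 574 FPKM in WT ESC (log2 fold change -4.15 ± 0.05, adjusted p = 4.99e-17 by edgeR's quasi-likelihood test). Both Nanog-null samples were far below both WT samples but not at 0. The value goes with the label in direction, but a level for the gene as a unit cannot tell whether the deleted exons were read. Hprt, which encodes the purine salvage enzyme hypoxanthine phosphoribosyltransferase, was 6.97 and 6.91 FPKM in Nanog-null ESC, against 119.7 and 127 FPKM in WT ESC (log2 fold change -4.15 ± 0.06). Some ESC lines widely used for gene targeting lack a functional Hprt gene. The labels do not name the parental line, so a difference between lines and an effect of Nanog cannot be told apart here. The genes of the Y chromosome were also higher, with all 6 tested ones at least 2-fold up. Ddx3y was 22.6 and 23 FPKM in Nanog-null ESC, against 4.21 and 3.67 FPKM in WT ESC, and Xist, the RNA that coats the inactive X chromosome, was 11.3 and 12 FPKM in Nanog-null ESC, against 3.35 and 3.09 FPKM in WT ESC. Xist overlaps its antisense partner Tsix, and the kit kept no strand, so their reads cannot be told apart.

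Markers of other cell types differed between these 2 groups. For the counts here, 19.3% of all tested genes rose and 13.6% fell at least 2-fold. Of 35 fibroblast genes, 34 rose at least 2-fold (97.1%), and their summed level was 2460 and 2390 FPKM in Nanog-null ESC, against 684 and 657 FPKM in WT ESC. Col1a1, the collagen chain that defines the list, was 213 and 208 FPKM in Nanog-null ESC, against 50.4 and 46.8 FPKM in WT ESC. The sum was 20900 and 21100 FPKM in the WT fibroblasts of the series, which are of another strain, C57/B6. The primitive endoderm genes summed to 2110 and 2120 FPKM in Nanog-null ESC and 540 and 521 FPKM in WT ESC, and 29 of 32 rose at least 2-fold (90.6%). Among them Ttr, Foxa2 and Aqp8, with 0 to 4 fragments in each WT sample, passed the filter on low counts through the Nanog-null samples alone. They could only be called higher. Of 14 genes of simple epithelial keratins and gap junctions, 10 rose and 2 fell at least 2-fold (71.4% and 14.3%), with sums of 753 and 710 FPKM in Nanog-null ESC and 133 and 128 FPKM in WT ESC. Of 10 macrophage genes tested, 6 rose at least 2-fold, with sums of 111 and 95.3 FPKM in Nanog-null ESC and 36.0 and 35.7 FPKM in WT ESC. The defining macrophage genes differed. Csf1r was 0.929 and 1.09 FPKM in Nanog-null ESC, against 0.0646 and 0.022 FPKM in WT ESC (log2 fold change 5.34 ± 0.35). It had 4 and 1 fragments in the WT samples, and likewise could only be called higher. The pan-leukocyte gene Ptprc was near 0 in both groups, with 0.036 and 0.0168 FPKM in Nanog-null ESC and 0.0074 and 0 FPKM in WT ESC. Of 10 endothelial genes, 3 rose and 4 fell at least 2-fold, and Tek was 1.44 and 1.24 FPKM in Nanog-null ESC and 1.74 and 1.41 FPKM in WT ESC. WT ESC of the C57/B6 strain came near the Nanog-null sums in 3 of these lists. They had 2820 and 2140 FPKM for fibroblast genes, 945 and 687 for keratin and gap junction genes and 103 and 76.9 for macrophage genes. For primitive endoderm genes they had less, 679 and 616 FPKM. RNA from other cells in the dish and RNA of the ESC cannot be told apart in bulk samples, nor can fewer cells of a type and less RNA per cell. The part of feeder or differentiated cells in the results below was not tested.

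One further difference lay with the WT samples. Genes on chromosome 8 with a mean of at least 5 FPKM were lower in Nanog-null ESC, with a median log2 fold change of -0.48 over 489 genes, and 76.9% of them were below 0, against 54.3% of all 8924 such genes. Over all tested genes the median of chromosome 8 was -0.41, and those of the other autosomes ran from -0.09 on chromosome 7 to 0.16 on chromosome 15. Against WT iPSC 1, a sample of the same strain, the chromosome 8 genes stood at 0.02 and -0.02 in the Nanog-null ESC samples and at 0.43 and 0.42 in the WT ESC samples. These are medians of log2(FPKM + 1) differences, each centred on all genes. In the other 12 samples the same value lay between -0.04 and 0.07. The WT ESC of this comparison thus stood apart on chromosome 8 from every other sample, WT and Nanog-null alike. The number of copies of chromosome 8 was not measured. On this chromosome 112 genes rose and 179 fell at least 2-fold (13.9% and 22.3%, against 19.3% and 13.6% of all genes), and 81 of its called genes still had a fall of that size once its median was taken off. With chromosome 8 left out of both counts, 2949 genes rose and 1980 fell at least 2-fold. Genes on chromosome 8 are marked as such below.

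**Figure D2:**
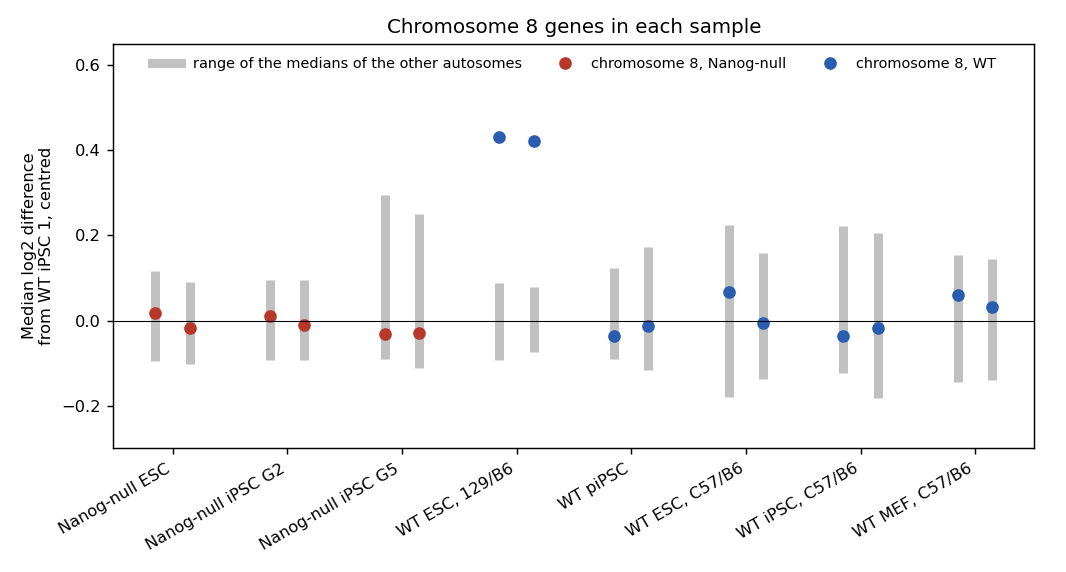
Median difference in log2(FPKM + 1) of chromosome 8 genes from WT iPSC 1 in each of 16 samples (points), centred on all genes with a mean of at least 5 FPKM, with the range of the medians of the other autosomes as grey bars. The Nanog-null ESC samples lie at 0.02 and -0.02, the WT ESC samples of strain 129/B6 at 0.43 and 0.42, and all others between -0.04 and 0.07.

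The largest rises were in genes that were near or at 0 in WT ESC. They are those with a mean of at least 5 FPKM in Nanog-null ESC, leaving out endoderm, fibroblast, keratin and collagen genes. Slc22a3, an organic cation transporter whose gene is imprinted in mouse placenta, was 10.3 and 11.2 FPKM in Nanog-null ESC, against 0 and 0.0123 FPKM in WT ESC. That is 2857 fragments in the Nanog-null samples together against 1 in the WT samples, a ratio of 1990-fold with a 95% counting interval of 357 to 78700. S100g, which encodes the calcium-binding protein calbindin-D9k, was 14 and 15.5 FPKM in Nanog-null ESC and listed at 0 in both WT samples, at least 82.4-fold higher against a floor of 3 fragments over the WT group. Sprr2a3, of the cornified envelope family, was 7.85 and 6.46 FPKM in Nanog-null ESC and likewise at 0 in WT ESC (at least 68.5-fold higher). Pparg, the nuclear receptor of fat cell differentiation, was 6.27 and 6.12 FPKM in Nanog-null ESC, against 0.0206 and 0 FPKM in WT ESC, a ratio of 569-fold (counting interval 102 to 22500). Intervals and floors cover counting error only.

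Several of these genes are known from the placenta or from signalling. Plac1, named for its expression in placenta, was 25.3 and 20.2 FPKM in Nanog-null ESC, against 0.191 and 0 FPKM in WT ESC (log2 fold change 7.87 ± 0.29). Gcm1, a transcription factor of the placental labyrinth, was 8.56 and 9.07 FPKM in Nanog-null ESC, against 0.0707 and 0.0441 FPKM in WT ESC (log2 fold change 7.19 ± 0.20). Dkk1, a secreted Wnt inhibitor, was 10.2 and 9.32 FPKM in Nanog-null ESC, against 0.0292 and 0.0182 FPKM in WT ESC, a ratio of 395-fold (counting interval 135 to 1920). Dppa1, a gene named for its association with pluripotent cells, was 35.1 and 34.8 FPKM in Nanog-null ESC, against 0.089 and 0.221 FPKM in WT ESC, a ratio of 387-fold (counting interval 132 to 1880). In each of these 4 genes both WT samples were near 0. Car4, a carbonic anhydrase, Th, the rate-limiting enzyme of dopamine synthesis, Foxi3, a forkhead factor, Timd2, a membrane receptor, and Epn3, an endocytic adaptor, make up the rest of the 15 with 4932442L08Rik and Igf2as. Their Nanog-null values ran from 5.39 FPKM in Foxi3 to 12.1 FPKM in Car4. Igf2as is antisense to Igf2, and the library kit did not keep strand, so its reads and those of Igf2 cannot be told apart.

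The largest fall was in the predicted gene Gm8909, with 1 fragment in the Nanog-null samples together against 720 in the WT samples. The files give this symbol to more than one gene ID. Olig1, which encodes a bHLH factor known from oligodendrocytes, was 0.04 and 0.0467 FPKM in Nanog-null ESC, against 5.46 and 5.23 FPKM in WT ESC (log2 fold change -6.85 ± 0.22). Its neighbour Olig2 was 0.0177 and 0 FPKM in Nanog-null ESC, against 3.95 and 4.51 FPKM in WT ESC, 1 fragment in the Nanog-null samples together against 521 in the WT samples. Ifitm1, an interferon-induced transmembrane protein gene that also marks early germ cells in mice, was 7.44 and 7.56 FPKM in Nanog-null ESC, against 223 and 231 FPKM in WT ESC (log2 fold change -5.02 ± 0.07). Tspo2 was 0.103 and 0.00627 FPKM in Nanog-null ESC, against 7.17 and 6.96 FPKM in WT ESC, and Rbm24, an RNA-binding protein gene, was 0.21 and 0.135 FPKM in Nanog-null ESC, against 5.41 and 4.7 FPKM in WT ESC. Falls of 4.06 to 4.90 on the log2 scale were seen in B4galnt4, a glycosyltransferase, Gstm3, a glutathione transferase, Ttll6, a tubulin polyglutamylase, Calca, the calcitonin and CGRP gene, Tdrd12, a piRNA factor, Qprt, an enzyme of NAD synthesis, and the predicted gene Gm12925. The relaxin gene Rln3, on chromosome 8, was 0.403 and 0.189 FPKM in Nanog-null ESC, against 6.73 and 7.8 FPKM in WT ESC (log2 fold change -4.73 ± 0.38).

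Among genes with a mean of at least 100 FPKM over the 4 samples, the largest rise was in the predicted gene Gm10116, with 2479 and 2347 FPKM in Nanog-null ESC, against 24.8 and 25.8 FPKM in WT ESC (log2 fold change 6.58 ± 0.07). Another predicted gene, Gm17386, was 1333 and 1454 FPKM in Nanog-null ESC, against 176 and 159 FPKM in WT ESC (log2 fold change 3.06 ± 0.06). The imprinted RNA H19 was 1292 and 1353 FPKM in Nanog-null ESC, against 67.1 and 63.4 FPKM in WT ESC (log2 fold change 4.30 ± 0.06). Fabp3, a fatty acid binding protein, was 849 and 842 FPKM in Nanog-null ESC, against 171 and 178 FPKM in WT ESC (log2 fold change 2.28 ± 0.05). Others of the 8 largest rises are strong in fibroblasts: S100a6, Lgals1 (galectin-1) and Bgn (the matrix proteoglycan biglycan). Lgals1 was 784 and 692 FPKM in Nanog-null ESC, against 101 and 118 FPKM in WT ESC, and 1425 and 1446 FPKM in the WT fibroblasts, where S100a6 was 1285 and 1298 FPKM and Bgn 1110.2 and 1107 FPKM. They are not strong in fibroblasts alone. In the C57/B6 WT ESC Lgals1 was 1840 and 1056 FPKM and S100a6 1509 and 827 FPKM, above both Nanog-null samples. Bgn was 120 and 107 FPKM there, below both Nanog-null samples. The abundant falls were led, after Ifitm1 and Nanog, by Igfbp2, an insulin-like growth factor binding protein, with 44.3 and 37.9 FPKM in Nanog-null ESC, against 549 and 477 FPKM in WT ESC (log2 fold change -3.66 ± 0.08). Hmga1, an architectural chromatin protein, was 49.6 and 48.4 FPKM in Nanog-null ESC, against 209 and 203 FPKM in WT ESC (log2 fold change -2.41 ± 0.05). H2afy, which encodes the histone variant macroH2A1, was 55.4 and 53.4 FPKM in Nanog-null ESC, against 240.0 and 235 FPKM in WT ESC (log2 fold change -2.20 ± 0.05).

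General pluripotency genes kept high levels in Nanog-null ESC, mostly below those of WT ESC. In this list 2 of 27 tested members rose and 4 fell at least 2-fold (7.41% and 14.8%, against 19.3% and 13.6% of all genes), and the median log2 fold change was -0.40. Pou5f1 was 592 and 589 FPKM in Nanog-null ESC, against 757 and 759.9 FPKM in WT ESC (log2 fold change -0.40 ± 0.04). Sox2 was 51.3 and 52.4 FPKM in Nanog-null ESC, against 141 and 142 FPKM in WT ESC (log2 fold change -1.45 ± 0.05). Zfp42, also called Rex1 and on chromosome 8, was 141 and 145 FPKM in Nanog-null ESC, against 227 and 220.4 FPKM in WT ESC (log2 fold change -0.64 ± 0.04). In all 3 genes the groups did not overlap, as in 87.8% of all genes, and of the 3 Sox2 alone differed more than 2-fold. Dppa5a, an RNA-binding protein gene and one of the most abundant transcripts here, was 1505 and 1541 FPKM in Nanog-null ESC, against 6230.4 and 6872 FPKM in WT ESC (log2 fold change -2.10 ± 0.06). The members that rose at least 2-fold were Dnmt3l and Lin28a, a let-7 binding protein known from primed and germ cells. Lin28a was 29.5 and 32.5 FPKM in Nanog-null ESC, against 4.25 and 4.68 FPKM in WT ESC (log2 fold change 2.77 ± 0.07). Its paralog Lin28b fell by 0.27 on the log2 scale, and Hmga2, a target of let-7, was 70.2 and 74 FPKM in Nanog-null ESC, against 3.44 and 3.48 FPKM in WT ESC (log2 fold change 4.38 ± 0.06).

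In the naive network, 2 of 21 tested members rose and 7 fell at least 2-fold (9.52% and 33.3%, against 19.3% and 13.6% of all genes), and the median log2 fold change was -0.64. Prdm14, which represses FGF receptor genes and DNA methyltransferases in ESC, was 3.29 and 3.27 FPKM in Nanog-null ESC, against 22.3 and 23.5 FPKM in WT ESC (log2 fold change -2.80 ± 0.07). Dppa3, also called Stella and a neighbour of Nanog on chromosome 6, was 29.9 and 31.8 FPKM in Nanog-null ESC, against 119 and 134 FPKM in WT ESC (log2 fold change -2.02 ± 0.06). Tcl1, Jam2, Klf4 and Pecam1 fell as well, and Klf4 was 30.4 and 27.9 FPKM in Nanog-null ESC, against 65.3 and 65 FPKM in WT ESC (log2 fold change -1.18 ± 0.05). Tfcp2l1 and Nr0b1, factors of the same network, did not pass the test, with log2 fold changes of 0.00 ± 0.06 and -0.01 ± 0.05. Klf2, on chromosome 8, and Klf5 and Tbx3 changed by less than 2-fold, at -0.51 ± 0.05, 0.12 ± 0.05 and 0.25 ± 0.05. The network thus did not move as a block. Esrrb, a naive factor that Nanog activates, was left out of the tests because its status was not OK in one of the samples. Gbx2 and Sp5, which are induced by LIF or Wnt, rose. Gbx2 was 4.71 and 4.36 FPKM in Nanog-null ESC, against 0.702 and 0.624 FPKM in WT ESC (log2 fold change 2.75 ± 0.11). Of the genes around Nanog on chromosome 6, Slc2a3 and Apobec1 fell with Dppa3, whereas Gdf3 changed by -0.46 ± 0.05 and Foxj2 by 0.83 ± 0.09 on the log2 scale.

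**Figure D3:**
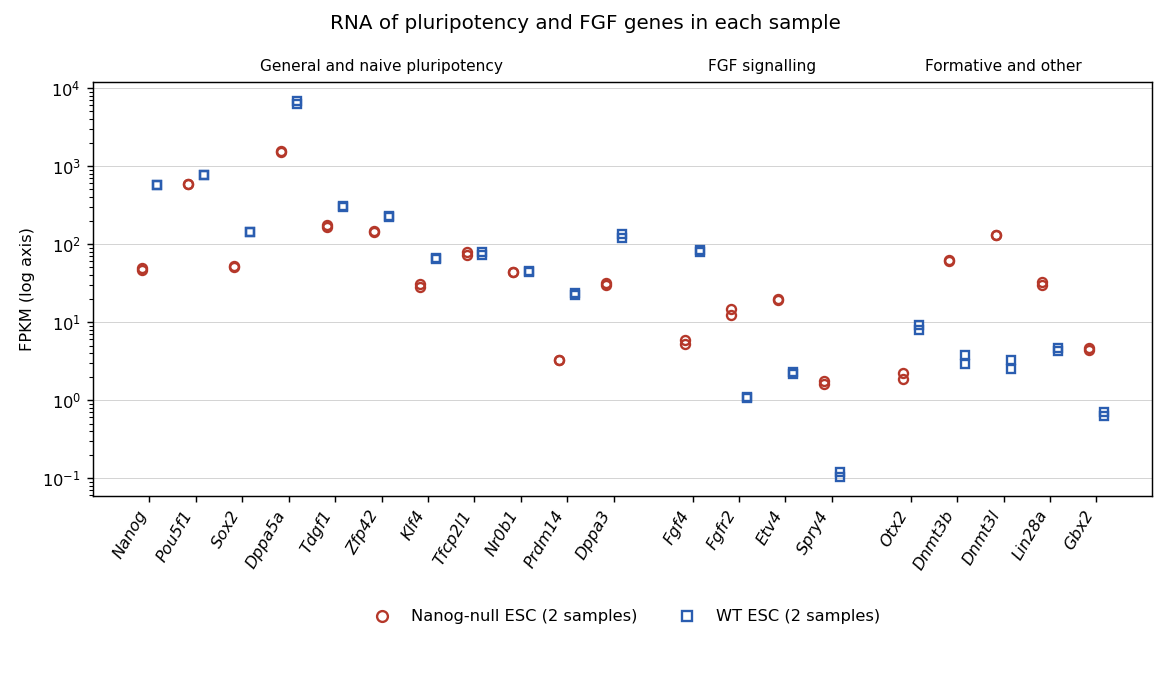
FPKM in each of the 2 Nanog-null (circles) and 2 WT ESC samples (squares), on a log axis, for pluripotency genes, FGF signalling genes and genes of the formative state. Nanog, Prdm14, Dppa3 and Fgf4 lie lower in Nanog-null ESC, Fgfr2, Dnmt3b and Dnmt3l lie higher, and Tfcp2l1 and Nr0b1 lie together.

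The ligand Fgf4 fell, while most tested genes of its pathway rose. Fgf4 was 5.93 and 5.26 FPKM in Nanog-null ESC, against 82.9 and 79.2 FPKM in WT ESC (log2 fold change -3.88 ± 0.06), one of the largest falls of the pluripotency genes. In the FGF and ERK list, 17 of 27 tested members rose and 3 fell at least 2-fold (63% and 11.1%, against 19.3% and 13.6% of all genes), and the median log2 fold change was 1.35. Among receptors, Fgfr2, used by FGF4 in primitive endoderm and trophoblast, was 14.5 and 12.3 FPKM in Nanog-null ESC, against 1.08 and 1.09 FPKM in WT ESC (log2 fold change 3.59 ± 0.10). Fgfr3 and Fgfr4 also rose, both with a mean below 1 FPKM in WT ESC, and Fgfr1, on chromosome 8, changed by 0.25 ± 0.05. The ETS factor Etv4 was 19.3 and 19.5 FPKM in Nanog-null ESC, against 2.26 and 2.13 FPKM in WT ESC (log2 fold change 3.01 ± 0.09), and Etv1 was 7.68 and 8.72 FPKM in Nanog-null ESC, against 0.946 and 0.679 FPKM in WT ESC (log2 fold change 3.71 ± 0.10). Its relative Etv5 did not pass the test (log2 fold change 0.05 ± 0.04). The feedback inhibitor Spry4 was 1.74 and 1.58 FPKM in Nanog-null ESC, against 0.104 and 0.121 FPKM in WT ESC (log2 fold change 3.87 ± 0.19), and Dusp6, a phosphatase of ERK, was 3.52 and 3.7 FPKM in Nanog-null ESC, against 1.06 and 1.41 FPKM in WT ESC (log2 fold change 1.57 ± 0.13). Of the immediate early genes, Fos, Fosl1, Jun, Egr1 and Myc rose and Ier2, on chromosome 8, fell. Myc was 20.6 and 16.9 FPKM in Nanog-null ESC, against 4.21 and 2.84 FPKM in WT ESC (log2 fold change 2.53 ± 0.13). Fibroblasts express several of these genes too: in the WT fibroblasts Egr1 was at 36.8 and 37.7 FPKM, Etv4 at 20.2 and 22.5 FPKM, Spry4 at 12 and 12 FPKM and Fgfr2 at 12.1 and 10.4 FPKM. Etv1 was at 1.07 and 1.06 FPKM there, below both Nanog-null samples. In the C57/B6 WT ESC Etv4 was at 19.4 and 15.5 FPKM, Spry4 at 1.51 and 1.36 FPKM and Egr1 at 3.16 and 2.63 FPKM. Egr1 was thus above both Nanog-null samples there. Fgfr2, at 3.75 and 8.48 FPKM, and Etv1, at 1.22 and 1.4 FPKM, were below both.

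In the LIF and STAT3 list, 6 of 18 tested members rose and 1 fell at least 2-fold (33.3% and 5.56%, against 19.3% and 13.6% of all genes), and the median log2 fold change was 0.50. Socs3, the feedback inhibitor that STAT3 induces, was 21.8 and 23.2 FPKM in Nanog-null ESC, against 5.21 and 5.17 FPKM in WT ESC (log2 fold change 2.18 ± 0.07). Lif itself was 8.37 and 8.9 FPKM in Nanog-null ESC, against 2.29 and 1.54 FPKM in WT ESC (log2 fold change 2.22 ± 0.09), and Osmr, a receptor of the same cytokine family, was 5.67 and 5.44 FPKM in Nanog-null ESC, against 1.05 and 1.25 FPKM in WT ESC (log2 fold change 2.44 ± 0.09). The WT fibroblasts had 7.41 and 7.11 FPKM of Lif and 26.6 and 29.4 FPKM of Osmr. Pim1, a kinase gene that STAT3 also induces, went the other way, with 12.1 and 12 FPKM in Nanog-null ESC, against 46.5 and 48.4 FPKM in WT ESC (log2 fold change -1.98 ± 0.05). The receptor genes Lifr and Il6st changed by 0.18 ± 0.06 and 0.27 ± 0.06.

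For the Wnt pathway, 15 of 30 tested members rose and 5 fell at least 2-fold (50% and 16.7%, against 19.3% and 13.6% of all genes), and the median log2 fold change was 1.11. Of the ligands, Wnt8a was 3.1 and 3.12 FPKM in Nanog-null ESC and listed at 0 in both WT samples (at least 89.4-fold higher). Wnt6 was 2.85 and 3.3 FPKM in Nanog-null ESC, against 0 and 0.0866 FPKM in WT ESC (log2 fold change 6.27 ± 0.38), and Wnt4, Wnt5a, Wnt7a, Wnt7b and Wnt11 also rose, while Wnt3 and Wnt3a fell. The feedback gene Axin2, a direct target of beta-catenin, was 15.3 and 16.2 FPKM in Nanog-null ESC, against 7.71 and 6.44 FPKM in WT ESC (log2 fold change 1.22 ± 0.06). Cdx2, a target of Wnt and a trophoblast regulator, was 5.79 and 4.91 FPKM in Nanog-null ESC, against 0.0315 and 0.0589 FPKM in WT ESC (log2 fold change 6.86 ± 0.27), whereas its relative Cdx1 was 10.2 and 11.3 FPKM in Nanog-null ESC, against 29 and 32.3 FPKM in WT ESC (log2 fold change -1.49 ± 0.07). Sfrp1, a secreted Wnt inhibitor on chromosome 8, was 7.42 and 7.32 FPKM in Nanog-null ESC, against 87.8 and 85.9 FPKM in WT ESC (log2 fold change -3.56 ± 0.05). The inhibitors Dkk1 and Sfrp1 thus changed in opposite directions. Wnt8a, Wnt6, Cdx2 and Dkk1, with 0 to 4 fragments in each WT sample, passed the filter on low counts through the Nanog-null samples alone. They could only be called higher, so their part of the count was fixed by the filter. Tcf7l1, a repressor of Wnt targets in ESC, was 11.8 and 11.8 FPKM in Nanog-null ESC, against 27.6 and 25 FPKM in WT ESC (log2 fold change -1.11 ± 0.05). 2i contains an inhibitor of GSK3, which activates this pathway, and the medium of the WT ESC is not known.

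For Nodal and BMP signalling, 7 of 25 tested members rose and 5 fell at least 2-fold (28% and 20%, against 19.3% and 13.6% of all genes), and the median log2 fold change was -0.31. Lefty2, a Nodal antagonist and target, was 13.2 and 14.9 FPKM in Nanog-null ESC, against 119.8 and 123 FPKM in WT ESC (log2 fold change -3.15 ± 0.06), and Lefty1 was 20.8 and 21 FPKM in Nanog-null ESC, against 49.3 and 43.9 FPKM in WT ESC (log2 fold change -1.18 ± 0.06). Nodal and its co-receptor Tdgf1 fell by less than 2-fold, at -0.31 ± 0.05 and -0.84 ± 0.05. On the BMP side, Bmp4 was 8.27 and 8.19 FPKM in Nanog-null ESC, against 1.01 and 1.07 FPKM in WT ESC (log2 fold change 2.90 ± 0.12), and Bmp2 was 1.16 and 1.37 FPKM in Nanog-null ESC, against 0.0291 and 0.0484 FPKM in WT ESC (log2 fold change 5.05 ± 0.31). The BMP target Id1 was 17.2 and 16.6 FPKM in Nanog-null ESC, against 1.22 and 1.09 FPKM in WT ESC (log2 fold change 3.84 ± 0.14), Id2 was 77.9 and 74.1 FPKM in Nanog-null ESC, against 6.38 and 5.37 FPKM in WT ESC (log2 fold change 3.68 ± 0.07), and Id3 rose too. Bmp7 and Id4 fell. The WT fibroblasts had 82.3 and 90.8 FPKM of Id1 and 24.8 and 23.1 FPKM of Bmp4.

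Genes of the formative and primed epiblast, the states after exit from naive pluripotency, moved both ways. In this list 7 of 19 tested members rose and 4 fell at least 2-fold (36.8% and 21.1%, against 19.3% and 13.6% of all genes), and the median log2 fold change was 0.58. Otx2, a driver of the formative state, was 2.23 and 1.88 FPKM in Nanog-null ESC, against 7.97 and 9.29 FPKM in WT ESC (log2 fold change -2.06 ± 0.11). Fgf5, the classical primed marker, was near 0 in both groups, with 0.0515 and 0.0641 FPKM in Nanog-null ESC and 0.0424 and 0.0352 FPKM in WT ESC, and was not tested. Dnmt3b was 60.9 and 61.9 FPKM in Nanog-null ESC, against 2.94 and 3.83 FPKM in WT ESC (log2 fold change 4.32 ± 0.08), and Pim2 was 20 and 19.9 FPKM in Nanog-null ESC, against 3.75 and 3.63 FPKM in WT ESC (log2 fold change 2.42 ± 0.07). Among the genes of mesoderm and primitive streak, 5 of 12 rose and 4 fell at least 2-fold (41.7% and 33.3%, against 19.3% and 13.6% of all genes). Eomes and Gsc were lower in Nanog-null ESC, at 1.26 and 1.31 FPKM and 1.06 and 1.03 FPKM, against 3.03 and 3.74 FPKM and 3.36 and 3.66 FPKM in WT ESC.

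Among DNA methyltransferase genes, Dnmt3l and Dnmt3b rose and Dnmt1 changed little. Dnmt3l, the catalytically inactive partner of the de novo enzymes, was 130.3 and 131 FPKM in Nanog-null ESC, against 3.21 and 2.53 FPKM in WT ESC (log2 fold change 5.47 ± 0.08). With Dnmt3b it stood far above WT ESC in both samples, and in the WT fibroblasts they were at 1.48 and 1.13 FPKM and 1.63 and 1.15 FPKM. The maintenance enzyme Dnmt1 and its partner Uhrf1 changed little, at -0.19 ± 0.05 and -0.25 ± 0.05 on the log2 scale. The dioxygenases Tet1 and Tet2 fell by less than 2-fold, and Tet3 was 2.47 and 2.31 FPKM in Nanog-null ESC, against 0.926 and 0.877 FPKM in WT ESC (log2 fold change 1.39 ± 0.07). Over the whole list 4 of 20 tested members rose and 1 fell at least 2-fold (20% and 5%, against 19.3% and 13.6% of all genes), and the median log2 fold change was 0.30. For Polycomb genes, 5 of 30 tested members rose and 1 fell at least 2-fold (16.7% and 3.33%, against 19.3% and 13.6% of all genes), and the median log2 fold change was 0.06. Mtf2, a subunit that recruits PRC2, was 51.8 and 57.9 FPKM in Nanog-null ESC, against 162 and 161 FPKM in WT ESC (log2 fold change -1.67 ± 0.05), whereas Bmi1, of PRC1, was 20.9 and 22.1 FPKM in Nanog-null ESC, against 7.03 and 9.73 FPKM in WT ESC (log2 fold change 1.53 ± 0.06). Both shares that rose were close to that of all genes.

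Most tested imprinted genes, which are expressed from the maternal or the paternal allele alone, were higher in Nanog-null ESC. In this list 20 of 37 tested members rose and 3 fell at least 2-fold (54.1% and 8.11%, against 19.3% and 13.6% of all genes), and the median log2 fold change was 1.21. Beside H19, the neighbouring genes at the end of chromosome 7 were higher: Ascl2, a trophoblast factor, was 27.8 and 25.2 FPKM in Nanog-null ESC, against 0.46 and 0.43 FPKM in WT ESC (log2 fold change 5.87 ± 0.13). Phlda2, a growth restrainer of the placenta, was 217 and 170.4 FPKM in Nanog-null ESC, against 10.8 and 11.4 FPKM in WT ESC (log2 fold change 4.12 ± 0.12), and the cell cycle inhibitor Cdkn1c was 60.5 and 53.3 FPKM in Nanog-null ESC, against 3.18 and 2.31 FPKM in WT ESC (log2 fold change 4.34 ± 0.10). Igf2, the growth factor gene next to H19, was 152 and 146 FPKM in Nanog-null ESC, against 13.1 and 13.1 FPKM in WT ESC (log2 fold change 3.55 ± 0.05). Peg3 and Mest, on chromosomes 7 and 6, rose as well, whereas Grb10 and Plagl1 fell by less than 2-fold and Snrpn did not pass the test (log2 fold change -0.04 ± 0.05). The WT fibroblasts had 1561 and 1574 FPKM of H19, 31.2 and 29.6 FPKM of Cdkn1c, 1.12 and 1.42 FPKM of Phlda2 and 0.0767 and 0.171 FPKM of Ascl2. The parental allele of the reads was not measured.

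The X-linked Rhox homeobox genes, used in placenta and germ line, were at 0 or very low in many cases: 12 were measured, 6 passed the filter on low counts, and 4 of these rose at least 2-fold (66.7%, against 19.3% of all genes). Rhox2a, with 49 fragments in the Nanog-null samples together against 2 in the WT samples, passed the filter through the Nanog-null samples alone and could only be called higher. Rhox6 was 74.8 and 77.8 FPKM in Nanog-null ESC, against 3.25 and 3.25 FPKM in WT ESC (log2 fold change 4.56 ± 0.08), and Rhox9 was 55.9 and 60.9 FPKM in Nanog-null ESC, against 2.78 and 4.26 FPKM in WT ESC (log2 fold change 4.10 ± 0.11). Of 22 trophoblast genes measured, 16 passed the filter on low counts, 13 rose at least 2-fold and 0 fell that far (81.2% and 0% of those tested, against 19.3% and 13.6% of all genes). Their summed level was 1110 and 990 FPKM in Nanog-null ESC, against 177 and 193 FPKM in WT ESC. In the C57/B6 WT ESC it was 1940 and 1160 FPKM, above both Nanog-null samples. Cdx2, with 2 and 3 fragments in the WT samples, and Plac1, with 5 and 0, passed the filter through the Nanog-null samples alone. They could only be called higher, so their part of the count was fixed by the filter. Gata2 was 31.3 and 28.5 FPKM in Nanog-null ESC, against 0.696 and 0.814 FPKM in WT ESC (log2 fold change 5.31 ± 0.09), and Gata3 was 4.54 and 3.95 FPKM in Nanog-null ESC, against 0.232 and 0.242 FPKM in WT ESC (log2 fold change 4.60 ± 0.19). The defining factor Elf5 was too low to test, with 0.225 and 0.171 FPKM in Nanog-null ESC and 0.0836 and 0.107 FPKM in WT ESC, and Tpbpa, a marker of the spongiotrophoblast, was listed at 0 in all 4 samples. Tfap2c and Tead4 changed by 0.12 ± 0.05 and 0.20 ± 0.06.

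Most of the germline genes were lower in Nanog-null ESC. In this list of genes of germ cells, meiosis and the piRNA pathway, 0 of 35 tested members rose and 20 fell at least 2-fold (0% and 57.1%, against 19.3% and 13.6% of all genes), and the median log2 fold change was -1.15. Tdrd12, a piRNA factor, was 3.09 and 3.1 FPKM in Nanog-null ESC, against 48.5 and 51.8 FPKM in WT ESC (log2 fold change -4.06 ± 0.07). Dazl, an RNA-binding protein of germ cells, was 2.45 and 2.5 FPKM in Nanog-null ESC, against 26.9 and 24.8 FPKM in WT ESC (log2 fold change -3.38 ± 0.07). Tex11, a meiotic gene of the X chromosome, was 0.65 and 0.619 FPKM in Nanog-null ESC, against 8.42 and 8.32 FPKM in WT ESC (log2 fold change -3.72 ± 0.10). Kit, the receptor tyrosine kinase of germ and blood stem cells, was 7.5 and 6.95 FPKM in Nanog-null ESC, against 45.5 and 45.2 FPKM in WT ESC (log2 fold change -2.75 ± 0.05). Stag3, a meiotic cohesin subunit, was 6.45 and 7.39 FPKM in Nanog-null ESC, against 28.6 and 29.1 FPKM in WT ESC (log2 fold change -2.36 ± 0.06), and Ddx4, the helicase also called Vasa, was 3.35 and 3.17 FPKM in Nanog-null ESC, against 15.9 and 15 FPKM in WT ESC (log2 fold change -2.26 ± 0.07). Dpep3, on chromosome 8, fell as well (log2 fold change -3.70 ± 0.33). In each of the 6 genes given in full, both Nanog-null samples were below both WT samples, but all 6 were named among those that fell. Over all genes tested the groups did not overlap in 87.8%. Members that did not change 2-fold include Mael, Tex19.1 and Dnd1, at 0.05 ± 0.11, -0.16 ± 0.05 and 0.45 ± 0.13. The 2-cell stage genes had 4 of 19 lower and 0 higher at least 2-fold (21.1% and 0%, against 13.6% and 19.3% of all genes). Their Zscan4 copies share reads and are uncertain, with log2 fold changes of -0.78 for Zscan4c and -0.06 for Zscan4d.

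Promoters of this list often held the palindrome CACGTG, the E-box that MAX and its partners bind. In windows from 250 bases before to 50 bases after the start of each gene, 13 of 31 germline genes (41.9%) held it, against 7.15% of all 32851 promoters and 11.5% of the 10739 tested genes with a promoter. Of the 17 that fell at least 2-fold and had a promoter, 8 held it. The rest of the 13 did not fall that far, and a link between motif and fall was not tested. Below are 2 of the 8 that fell and held it, with the motif in capitals, from RefSeq on GRCm38.p6. Ddx4 lies at chr13:112652261-112652560, minus strand, and Stag3 at chr5:138280259-138280558, plus strand.
Ddx4: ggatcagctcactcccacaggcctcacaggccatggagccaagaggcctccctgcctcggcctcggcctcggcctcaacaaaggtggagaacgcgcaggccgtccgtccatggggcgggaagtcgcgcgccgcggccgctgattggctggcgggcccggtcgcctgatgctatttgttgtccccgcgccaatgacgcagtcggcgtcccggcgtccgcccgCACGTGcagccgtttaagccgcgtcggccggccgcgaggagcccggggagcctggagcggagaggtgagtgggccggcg
Stag3: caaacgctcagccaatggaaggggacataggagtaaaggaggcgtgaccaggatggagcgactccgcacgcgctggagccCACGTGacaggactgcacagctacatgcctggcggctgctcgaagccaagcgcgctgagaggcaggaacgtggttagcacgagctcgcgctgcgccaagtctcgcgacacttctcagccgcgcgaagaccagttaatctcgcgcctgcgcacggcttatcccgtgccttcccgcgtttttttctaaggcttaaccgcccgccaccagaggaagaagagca
Both strands were searched, and the palindrome reads the same on each. A match is a description of these letters and shows no binding.

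Genes of serine, glycine and one-carbon metabolism and of the ATF4 response were mostly lower in Nanog-null ESC. ATF4 is the transcription factor of the amino acid response, and the pathway supplies carbon units for nucleotide synthesis. In this list 3 of 36 tested members rose and 15 fell at least 2-fold (8.33% and 41.7%, against 19.3% and 13.6% of all genes), and the median log2 fold change was -0.72. The enzymes of serine synthesis all fell: Phgdh was 34.9 and 33.6 FPKM in Nanog-null ESC, against 154 and 141 FPKM in WT ESC (log2 fold change -2.11 ± 0.05), and Psat1 and Psph fell by 1.72 and 1.79 on the log2 scale. The mitochondrial folate enzymes Shmt2 and Mthfd2 were lower, with 40.8 and 38.6 FPKM and 26.7 and 25.1 FPKM in Nanog-null ESC, against 112 and 116 FPKM and 80.3 and 73.8 FPKM in WT ESC. Their cytosolic counterparts Shmt1 and Mthfd1 changed by -0.61 ± 0.05 and -0.16 ± 0.05. For proline synthesis, Aldh18a1 was 10.8 and 10.7 FPKM in Nanog-null ESC, against 45.7 and 42.9 FPKM in WT ESC (log2 fold change -2.01 ± 0.05) and Pycr1 was 11.2 and 11.6 FPKM in Nanog-null ESC, against 49.7 and 51.2 FPKM in WT ESC (log2 fold change -2.21 ± 0.06). Asns, asparagine synthetase, was 217 and 216 FPKM in Nanog-null ESC, against 622 and 606 FPKM in WT ESC (log2 fold change -1.51 ± 0.05). Slc7a3, a transporter of cationic amino acids, was 7.37 and 7.1 FPKM in Nanog-null ESC, against 48 and 46.6 FPKM in WT ESC (log2 fold change -2.78 ± 0.05). Atf4 RNA itself changed by -0.41 ± 0.05. Other genes of the response, Atf3, Atf5 and Slc7a11, rose, so the response genes did not all move one way. Tdh, which starts threonine breakdown in mouse ESC, was 9.56 and 9.4 FPKM in Nanog-null ESC, against 19.9 and 22.4 FPKM in WT ESC (log2 fold change -1.75 ± 0.08).

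The composite site of CHOP and ATF4, searched as TGATGNAA on both strands, stood in the promoters of 8 of 30 members (26.7%), against 3.97% of all promoters and 2.78% of tested genes with one. The list was drawn up with known ATF4 targets in it, so this share is no independent finding. Of 11 members with a promoter that fell at least 2-fold, 4 held the site, and Atf3 and Slc7a11, which rose, held it too. Asns lies at chr6:7693160-7693459, minus strand, and Pycr1 at chr11:120643699-120643998, minus strand. Their RefSeq promoters on GRCm38.p6, with the site in capitals, show it on the strand of the gene.
Asns: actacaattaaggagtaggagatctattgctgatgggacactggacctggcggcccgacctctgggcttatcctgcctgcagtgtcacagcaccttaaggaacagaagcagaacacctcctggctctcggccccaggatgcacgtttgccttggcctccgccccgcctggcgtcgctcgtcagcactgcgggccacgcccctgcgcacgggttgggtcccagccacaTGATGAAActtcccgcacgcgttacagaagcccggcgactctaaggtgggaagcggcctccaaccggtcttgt
Pycr1: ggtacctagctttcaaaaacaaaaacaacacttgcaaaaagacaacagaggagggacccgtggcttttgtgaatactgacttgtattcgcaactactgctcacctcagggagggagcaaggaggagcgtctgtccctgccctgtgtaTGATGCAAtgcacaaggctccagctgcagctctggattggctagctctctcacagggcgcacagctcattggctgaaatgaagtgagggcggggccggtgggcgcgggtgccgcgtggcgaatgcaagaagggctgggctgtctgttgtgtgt

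**Figure D4:**
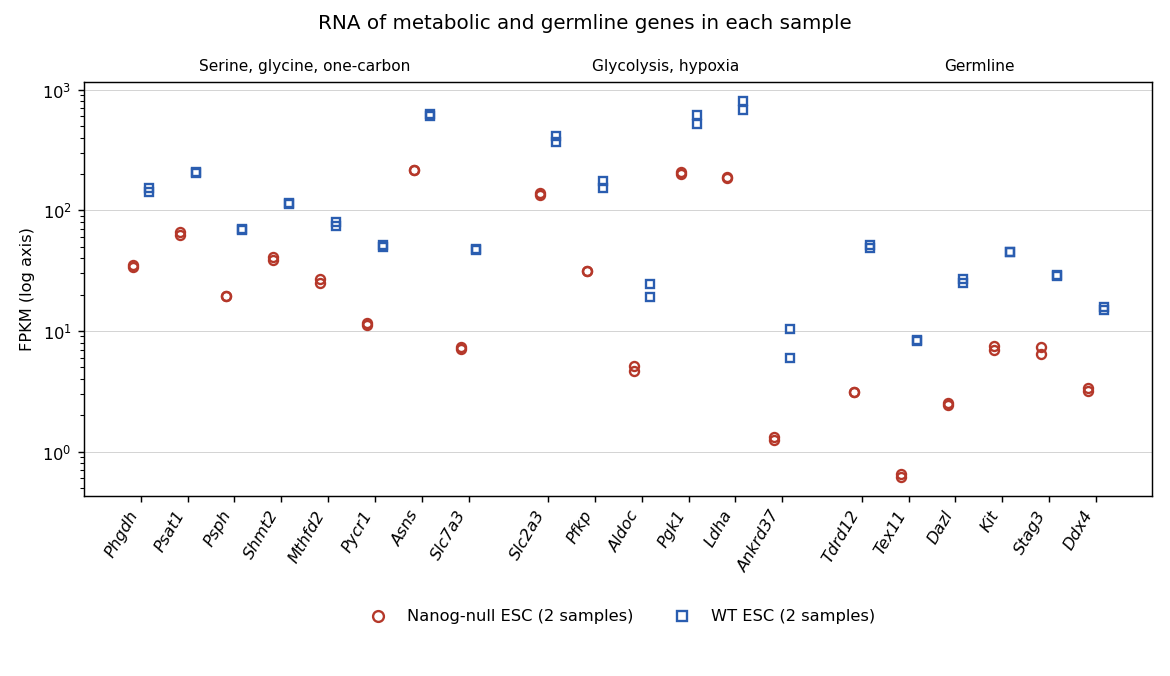
FPKM in each of the 2 Nanog-null (circles) and 2 WT ESC samples (squares), on a log axis, for genes of serine and one-carbon metabolism, of glycolysis and hypoxia, and of the germ line. Both Nanog-null samples lie below both WT samples in every gene drawn, and Ankrd37 has the widest spread between its WT samples, 5.95 and 10.4 FPKM. Over all genes tested the groups did not overlap in 87.8%.

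Several glycolytic and hypoxia-responsive genes were lower too. In this list 2 of 38 tested members rose and 12 fell at least 2-fold (5.26% and 31.6%, against 19.3% and 13.6% of all genes), and the median log2 fold change was -0.67. Ldha, lactate dehydrogenase A, was 189 and 186 FPKM in Nanog-null ESC, against 809 and 682 FPKM in WT ESC (log2 fold change -2.04 ± 0.07). The phosphofructokinase Pfkp was 31.6 and 31.3 FPKM in Nanog-null ESC, against 175 and 152 FPKM in WT ESC (log2 fold change -2.40 ± 0.07), and the glucose transporter Slc2a3 was 135 and 139 FPKM in Nanog-null ESC, against 413 and 370.2 FPKM in WT ESC (log2 fold change -1.51 ± 0.06). Slc16a3, which exports lactate, was 9.57 and 6.56 FPKM in Nanog-null ESC, against 32.5 and 24.4 FPKM in WT ESC (log2 fold change -1.93 ± 0.13). Ankrd37, a hypoxia target on chromosome 8, was 1.33 and 1.26 FPKM in Nanog-null ESC, against 5.95 and 10.4 FPKM in WT ESC (log2 fold change -2.86 ± 0.22). Not all of the pathway fell: Slc2a1, another glucose transporter, changed by 0.91 ± 0.05, Hk2 by 0.19 ± 0.05 and Gapdh by -0.27 ± 0.06, and Adm and Eno3 rose. The WT samples differed between themselves in several of these genes, with WT sample 1 higher in Ldha, Pfkp and Slc16a3 and lower in Ankrd37.

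The hypoxia response core ACGTG stood in 23 of 34 of these promoters (67.6%), against 19.6% of all promoters and 28.3% of tested genes with one, and in 8 of the 10 that fell at least 2-fold. This list was likewise drawn up with known hypoxia targets in it. The core lies inside CACGTG, so the motif counts overlap. Ldha (first of its starts with the motif) lies at chr7:46845554-46845853, plus strand, and Ankrd37 at chr8:45999801-46000100, minus strand. Both are from RefSeq on GRCm38.p6, and capitals mark the core on either strand.
Ldha: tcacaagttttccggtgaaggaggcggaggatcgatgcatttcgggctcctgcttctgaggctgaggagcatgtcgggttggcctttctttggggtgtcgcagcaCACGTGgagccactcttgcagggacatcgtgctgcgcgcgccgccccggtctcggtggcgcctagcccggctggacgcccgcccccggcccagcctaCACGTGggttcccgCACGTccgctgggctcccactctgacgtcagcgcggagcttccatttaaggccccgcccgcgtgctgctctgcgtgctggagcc
Ankrd37: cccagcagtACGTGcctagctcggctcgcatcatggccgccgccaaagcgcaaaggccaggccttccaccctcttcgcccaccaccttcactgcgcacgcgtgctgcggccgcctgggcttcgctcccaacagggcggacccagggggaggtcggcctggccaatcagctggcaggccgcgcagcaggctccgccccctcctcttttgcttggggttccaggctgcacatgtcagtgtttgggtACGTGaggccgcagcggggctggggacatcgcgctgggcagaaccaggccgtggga

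Purine genes were mixed. In this list 4 of 25 tested members rose and 5 fell at least 2-fold (16% and 20%, against 19.3% and 13.6% of all genes), and the median log2 fold change was -0.21. Of the synthesis enzymes, Paics, Pfas and Prps1 fell at least 2-fold, and Paics was 160.3 and 164 FPKM in Nanog-null ESC, against 426 and 429 FPKM in WT ESC (log2 fold change -1.37 ± 0.04). Prps2, a relative of Prps1, rose instead, with 16.5 and 16.8 FPKM in Nanog-null ESC, against 5.94 and 5.43 FPKM in WT ESC (log2 fold change 1.67 ± 0.06). The salvage and breakdown enzymes Nt5e, Xdh and Ada rose, and Nt5e, also known as CD73, was 8.69 and 9.5 FPKM in Nanog-null ESC, against 0.462 and 0.517 FPKM in WT ESC (log2 fold change 4.23 ± 0.11). The other salvage enzyme, Aprt, on chromosome 8, did not pass the test (log2 fold change 0.00 ± 0.05).

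Transcripts of ribosomes and DNA replication were lower, mostly by less than 2-fold. Of 84 cytosolic ribosomal protein genes, 82 fell and 1 rose by the test, against 40.2% each of all genes. Of them 22 fell at least 2-fold (26.2%, against 13.6% of all genes), and the median log2 fold change was -0.81. They took 6.11% and 5.98% of the fragments in Nanog-null ESC, against 10.1% and 10.5% in WT ESC. Rps3a was 506 and 483 FPKM in Nanog-null ESC, against 1449 and 1544 FPKM in WT ESC (log2 fold change -1.60 ± 0.05). Ribosomal protein genes have many processed copies in the genome, so the authors' counting could split their reads. Of 41 DNA replication genes, 38 fell and 1 rose by the test, against 40.2% each of all genes, and the median log2 fold change was -0.66. Only 6 fell at least 2-fold (14.6%), a share near the 13.6% of all genes. Pola1, of the primase complex, was 16.6 and 16.7 FPKM in Nanog-null ESC, against 37.8 and 37.7 FPKM in WT ESC (log2 fold change -1.21 ± 0.05), and Orc6, on chromosome 8, fell the most (log2 fold change -1.45 ± 0.05). Of 83 subunits of oxidative phosphorylation, 56 fell and 9 rose by the test, against 40.2% each of all genes. At least 2-fold, 9 fell (10.8%, against 13.6% of all genes) and 0 rose, and Cox7a1 was 19.5 and 20.5 FPKM in Nanog-null ESC, against 159 and 173 FPKM in WT ESC (log2 fold change -3.02 ± 0.09). Of 30 genes of cholesterol synthesis, 18 fell and 8 rose by the test, against 40.2% each of all genes. At least 2-fold, 2 fell (6.67%, against 13.6% of all genes) and 0 rose.

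Among cell cycle genes, 4 of 32 tested members rose and 6 fell at least 2-fold (12.5% and 18.8%, against 19.3% and 13.6% of all genes), and the median log2 fold change was -0.42. The D-type cyclin Ccnd2 was 18.9 and 18.5 FPKM in Nanog-null ESC, against 2.67 and 2.68 FPKM in WT ESC (log2 fold change 2.80 ± 0.06), and the inhibitor Cdkn2b was 21.7 and 20.4 FPKM in Nanog-null ESC, against 4.6 and 4.01 FPKM in WT ESC (log2 fold change 2.27 ± 0.09). Cdkn1b, the inhibitor p27, was 12.8 and 13.2 FPKM in Nanog-null ESC, against 29.6 and 27.4 FPKM in WT ESC (log2 fold change -1.16 ± 0.05), and the mitotic kinase Bub1 was 22.3 and 22.5 FPKM in Nanog-null ESC, against 59.8 and 65.7 FPKM in WT ESC (log2 fold change -1.46 ± 0.05). In the p53 response, 8 of 25 tested members rose and 2 fell at least 2-fold (32% and 8%, against 19.3% and 13.6% of all genes), and the median log2 fold change was 0.66. Cdkn1a, the inhibitor p21, was 129 and 127 FPKM in Nanog-null ESC, against 56.4 and 55.4 FPKM in WT ESC (log2 fold change 1.15 ± 0.05), whereas Trp53 itself changed by -0.49 ± 0.05. Btg2, an antiproliferative target, was 31.2 and 30.2 FPKM in Nanog-null ESC, against 8.68 and 7.61 FPKM in WT ESC (log2 fold change 1.91 ± 0.06), and the apoptosis gene Pmaip1 was 13.5 and 13.9 FPKM in Nanog-null ESC, against 35 and 34 FPKM in WT ESC (log2 fold change -1.33 ± 0.05).

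Genes of the interferon response and antigen presentation moved in both directions. Here 13 of 32 tested members rose and 3 fell at least 2-fold (40.6% and 9.38%, against 19.3% and 13.6% of all genes), and the median log2 fold change was 0.78. The 3 that fell were the neighbours Ifitm1, Ifitm2 and Ifitm3 on chromosome 7. Ifitm2 was 113 and 107 FPKM in Nanog-null ESC, against 444 and 458 FPKM in WT ESC (log2 fold change -2.03 ± 0.05). The Ifitm genes are similar in sequence, so reads may be split between them. Among those that rose, B2m, the light chain of MHC class I, was 275 and 265 FPKM in Nanog-null ESC, against 70.9 and 76.4 FPKM in WT ESC (log2 fold change 1.88 ± 0.05). Tap1, which carries peptides to MHC class I, was 8.64 and 8.12 FPKM in Nanog-null ESC, against 2.66 and 1.67 FPKM in WT ESC (log2 fold change 2.18 ± 0.13), and Rsad2, an antiviral enzyme, was 3.43 and 3.57 FPKM in Nanog-null ESC, against 0.383 and 0.17 FPKM in WT ESC (log2 fold change 3.61 ± 0.18). Several genes of the interferon response did not pass the test, such as Irf1 (log2 fold change -0.20 ± 0.09), Bst2 on chromosome 8 (log2 fold change -0.11 ± 0.06) and Ifit3 (log2 fold change 0.67 ± 0.41). The WT fibroblasts had 152 and 139 FPKM of Ifitm2 and 5.09 and 5.71 FPKM of Tap1.

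Retinoid genes rose in part: 9 of 20 tested members rose and 1 fell at least 2-fold (45% and 5%, against 19.3% and 13.6% of all genes), and the median log2 fold change was 0.68. Cyp26a1, which breaks down retinoic acid and is induced by it, was 25 and 22.1 FPKM in Nanog-null ESC, against 0.432 and 0.385 FPKM in WT ESC (log2 fold change 5.82 ± 0.14), and Stra6, the receptor for retinol uptake, was 3.66 and 4.27 FPKM in Nanog-null ESC, against 0.477 and 0.299 FPKM in WT ESC (log2 fold change 3.12 ± 0.17). In the list of Notch and Hedgehog genes, 6 of 23 tested members rose and 7 fell at least 2-fold (26.1% and 30.4%, against 19.3% and 13.6% of all genes), and the median log2 fold change was -0.16. Gli2, a Hedgehog effector, was 0.879 and 0.669 FPKM in Nanog-null ESC, against 11.2 and 9.81 FPKM in WT ESC (log2 fold change -3.95 ± 0.07), and the pathway genes Ptch1, Gli1 and, on chromosome 8, Hhip fell with it. The Hedgehog ligand Ihh was higher in Nanog-null ESC, with 1.74 and 1.51 FPKM in Nanog-null ESC, against 0.0145 and 0 FPKM in WT ESC, 284 fragments in the Nanog-null samples together against 1 in the WT samples. The Notch ligand Dll1 was 3.7 and 3.88 FPKM in Nanog-null ESC, against 0.464 and 0.234 FPKM in WT ESC (log2 fold change 4.30 ± 0.20), and Notch4 was 0.246 and 0.341 FPKM in Nanog-null ESC, against 1.32 and 1.29 FPKM in WT ESC (log2 fold change -2.51 ± 0.14).

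Redox genes changed in both directions. In the glutathione and metallothionein list 4 of 18 tested members rose and 8 fell at least 2-fold (22.2% and 44.4%, against 19.3% and 13.6% of all genes), and the median log2 fold change was -0.35. The selenoprotein Gpx3 was 82 and 75.4 FPKM in Nanog-null ESC, against 6.68 and 6.13 FPKM in WT ESC (log2 fold change 3.62 ± 0.07), whereas the transferase Gsta4 was 126 and 131 FPKM in Nanog-null ESC, against 354 and 385 FPKM in WT ESC (log2 fold change -1.52 ± 0.05). Gpx4, which protects against lipid peroxidation, was 419 and 386 FPKM in Nanog-null ESC, against 958 and 921 FPKM in WT ESC (log2 fold change -1.23 ± 0.05). Srxn1, a target of NRF2, was 56.7 and 52.3 FPKM in Nanog-null ESC, against 12.8 and 12.4 FPKM in WT ESC (log2 fold change 2.11 ± 0.06), and Hmox1, heme oxygenase on chromosome 8, was 114 and 115 FPKM in Nanog-null ESC, against 48.1 and 47 FPKM in WT ESC (log2 fold change 1.29 ± 0.05).

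In the serpin family of protease inhibitors, 60 genes were measured, 25 passed the filter on low counts, 21 of these rose at least 2-fold and 0 fell that far (84.0% and 0%, against 19.3% and 13.6% of all genes). A cluster on chromosome 13 was near 0 in WT ESC: Serpinb9e was 4.7 and 5.24 FPKM in Nanog-null ESC, against 0 and 0.0235 FPKM in WT ESC, and Serpinb9c, Serpinb9d, Serpinb9f and Serpinb9g were listed at 0 in both WT samples and at 1.27 to 2.64 FPKM in Nanog-null ESC. These paralogs are similar in sequence, so reads may be split between them. They passed the filter through the Nanog-null samples alone and could only be called higher, so their part of the count was fixed by the filter. Of 275 solute carrier transporters, 79 rose and 35 fell at least 2-fold (28.7% and 12.7%, against 19.3% and 13.6% of all genes). Slc5a5, the iodide transporter on chromosome 8, was 12.9 and 12.1 FPKM in Nanog-null ESC, against 0.131 and 0.208 FPKM in WT ESC (log2 fold change 6.22 ± 0.14), and Slc13a4, a sulfate transporter of the placenta, was 11 and 11.2 FPKM in Nanog-null ESC, against 0.282 and 0.315 FPKM in WT ESC (log2 fold change 5.21 ± 0.11). Of 328 zinc finger genes named Zfp, 68 rose and 187 fell by the test, against 40.2% each of all genes. At least 2-fold, 23 rose and 46 fell (7.01% and 14.0%, against 19.3% and 13.6% of all genes), and their median log2 fold change was -0.35. Among 33 Hox genes tested, 15 rose and 4 fell at least 2-fold (45.5% and 12.1%, against 19.3% and 13.6% of all genes). Their levels were low, and Hoxd8, the highest of those that rose, was 4.45 and 3.78 FPKM in Nanog-null ESC, against 1.45 and 0.952 FPKM in WT ESC (log2 fold change 1.47 ± 0.14). At the same fold, 27 of 38 collagen genes were higher and 3 lower (71.1% and 7.89%, against 19.3% and 13.6% of all genes). Of 14 neural genes, 4 were higher and 4 lower (28.6% each, against 19.3% and 13.6% of all genes). Of 21 heat shock genes, 3 were higher and 0 lower (14.3% and 0%), and of 9 oncofetal RNA-binding protein genes, 2 were higher and 1 lower (22.2% and 11.1%). The shares of the heat shock and oncofetal lists that rose were near that of all genes.

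Epithelial adhesion and mesenchymal genes were read side by side. For adhesion genes, 5 of 26 tested members rose and 4 fell at least 2-fold (19.2% and 15.4%, against 19.3% and 13.6% of all genes), and the median log2 fold change was 0.01. Cdh1, the E-cadherin gene on chromosome 8, was 67.7 and 69.7 FPKM in Nanog-null ESC, against 163 and 159 FPKM in WT ESC (log2 fold change -1.23 ± 0.05), and Cdh2, N-cadherin, was 6.04 and 5.34 FPKM in Nanog-null ESC, against 0.681 and 0.703 FPKM in WT ESC (log2 fold change 2.98 ± 0.10). Epcam changed by -0.16 ± 0.05 on the log2 scale. For factors of the epithelial to mesenchymal transition, 11 of 17 tested members rose and 0 fell at least 2-fold (64.7% and 0%, against 19.3% and 13.6% of all genes), and the median log2 fold change was 2.01. Snai1 was 8.55 and 8.17 FPKM in Nanog-null ESC, against 1.02 and 1.14 FPKM in WT ESC (log2 fold change 2.95 ± 0.13), and Tgfbr2, a receptor of TGF-beta, was 8.03 and 7.87 FPKM in Nanog-null ESC, against 0.821 and 0.705 FPKM in WT ESC (log2 fold change 3.37 ± 0.07). The WT fibroblasts had 42.2 and 42.7 FPKM of Snai1 and 21.3 and 22.5 FPKM of Tgfbr2, and Fn1, fibronectin, did not pass the test in the ESC (log2 fold change -0.08 ± 0.05).

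**Figure D5:**
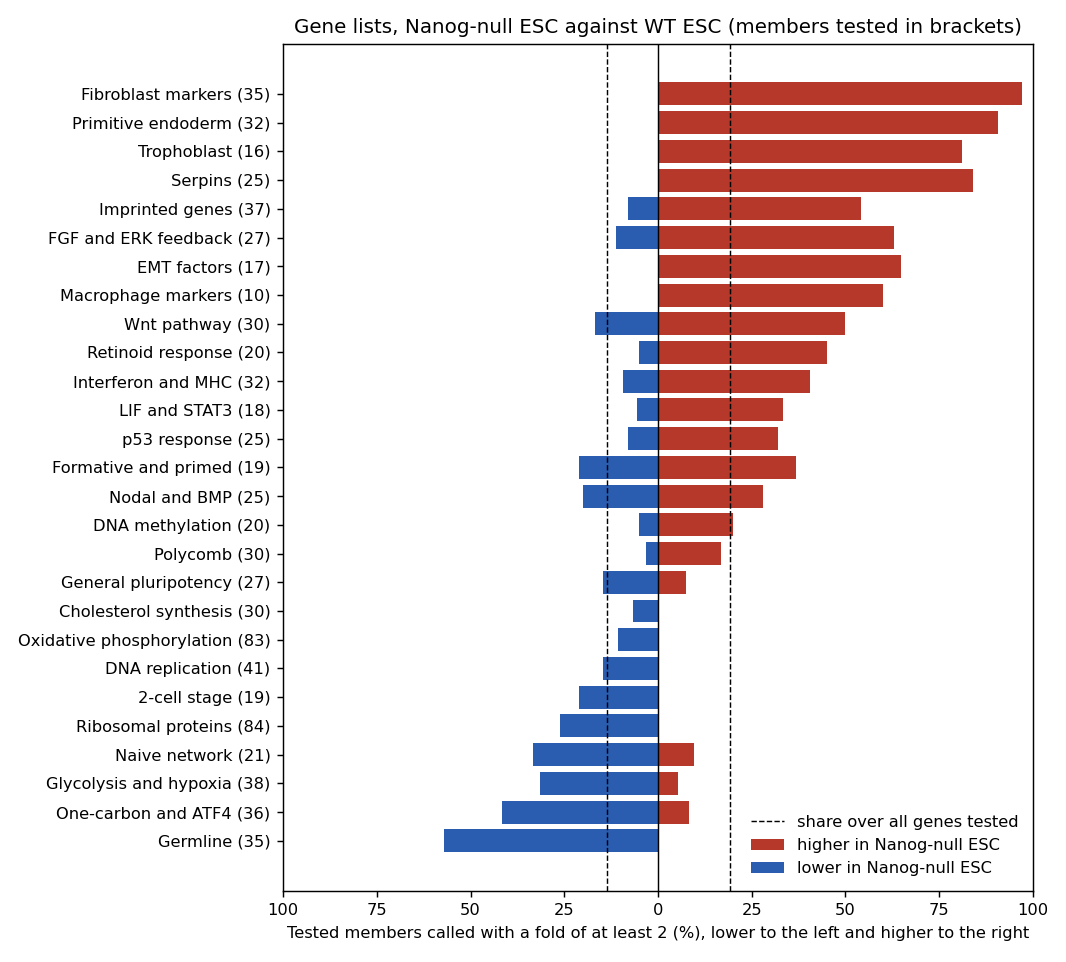
Share of the tested members of 27 gene lists called with a fold of at least 2, higher in Nanog-null ESC to the right and lower to the left, with the number of members tested in brackets. Dashed lines mark the shares over all genes, 19.3% higher and 13.6% lower, and the germline, one-carbon, glycolysis and naive lists extend past the left line while most signalling and cell type lists extend past the right one.

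The other samples of the series place these differences, as a description with no test. Of the 3061 genes that rose at least 2-fold, 2133 (69.7%) were higher in both Nanog-null ESC samples than in all 7 WT ESC and WT iPSC samples of both strains, against 23.7% of all genes. The 7 include the 2 WT samples that chose these genes. Of the 2159 that fell that far, 1348 (62.4%) were below all 7, against 21.7%. In the 4 Nanog-null iPSC samples, 2492 of the genes that rose (81.4%) were above WT iPSC 1, against 41.1% of all genes, and 1734 of those that fell (80.3%) were below it, against 42.6%. The Nanog-null iPSC come from fibroblasts made from the Nanog-null ESC, so both lie on 1 line. Of the genes that rose, 46.0% were lower in both WT fibroblast samples than in both Nanog-null ESC samples, against 48.3% of all genes. Hprt was 9.9 and 12.6 FPKM in Nanog-null iPSC G2, 5.57 and 6.71 in G5 and 106 in WT iPSC 1. Dnmt3l was 38.7 and 39.5 FPKM in G2, 23.6 and 22.4 in G5, 18.5 in WT iPSC 1 and 265 and 195 in the C57/B6 WT ESC. Tdrd12 was 2.32 and 2.13 FPKM in G2, 2.86 and 3.2 in G5, 26.7 in WT iPSC 1 and 64.4 and 52 in the C57/B6 WT ESC. Phgdh was 27.5 and 25.9 FPKM in G2, 31.9 and 34.9 in G5, 126 in WT iPSC 1 and 154 and 119 in the C57/B6 WT ESC. Other falls were small or absent against the C57/B6 WT ESC. There Kit was 4.8 and 7.84 FPKM, Lefty2 17.2 and 16.8, Aldh18a1 13.5 and 12.4 and Mtf2 40.8 and 62.1. In WT iPSC 1 these genes were at 29.6, 56.4, 35.2 and 204 FPKM, above both Nanog-null ESC samples. Some rises were reversed against the C57/B6 WT ESC. There Car4 was 164 and 104 FPKM, Fabp3 1483 and 1001, Id1 51.5 and 36.8 and Lin28a 39.4 and 42, above both Nanog-null ESC samples. In WT iPSC 1 these rising genes were at 0.648, 94.8, 2.97 and 14.2 FPKM, below both Nanog-null ESC samples.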

How the data were processed

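RNA of 17 mouse samples was sequenced, per the labels' protocols with a kit that keeps no strand, on either of 2 instruments. Per the submitters' processing notes, Cuffdiff 2.1.1, Bowtie2 2.0.5, TopHat2 2.0.7 and CASAVA were used, and the builds mm10 and NCBIM37 are both named, with no role given. Each deposited file gives, per the file headers, estimated counts (expected counts of fragments per gene) and FPKM values for 28670 genes. Of the counts, 97.5 to 98.1% were within 0.01 of a whole number in the 4 samples compared.

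The counts were rounded and fitted in edgeR 4.0.16 (R 4.3.3) over these 4 samples, with TMM scaling, edgeR's filter on low counts and a quasi-likelihood test with Benjamini-Hochberg adjustment. Of the genes, 11 whose status was not OK in a sample were left out, Esrrb and Rif1 among them. The replicates of a group were no duplicates, since the mean chi-square over genes was 16.0 between the Nanog-null samples and 3.84 between the WT samples.

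Gene lists (45 in all) are described by counts and medians, with no set test. The members and lists were chosen with earlier results of these data known. Genes are named by rule: Nanog, the 15 largest rises and falls at 5 FPKM or more in the higher group, the 8 largest of each at a mean of 100 FPKM or more, and up to 5 called members of each list by size of change. The rules by size of change over all genes leave out endoderm, fibroblast, keratin and collagen genes. Other genes named, those near no change in particular, were chosen after their values were seen. Promoters were matched by symbol, and 7 motifs were searched in 6 lists. Alternatives were other scalings, filters and tools, a replicate block, and leaving out each sample.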

Additional observations from a re-analysis of the deposited data

How the results depend on the processing

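The counts of called genes and of genes called with a fold of at least 2 were 12735 and 5220. With limma on log2(FPKM + 1), which understates folds of low genes, 2591 genes passed with that fold, and with a mean of at least 1 FPKM required, 3304 did among fewer genes tested. Both kept the direction of Nanog. All other alternatives stayed within 1.5 times: DESeq2 1.42.0 called 11002 and 4979, and edgeR without a filter called 13278 and 5897. The replicate numbers did not pair the samples, with a correlation of same-number deviations of -0.00223 over 11796 genes, and the fit with the replicate block called 12694 and 5228. Leaving out each sample in turn called 11692 to 12562 genes, and 5151 to 5429 with the fold. Such a fit leaves 1 sample in an arm, which is assumed to vary like the other group. Requiring a fold above 2 within the test itself (edgeR's glmTreat) called 3920 genes, of which 2387 rose and 1533 fell. The log2 fold change of Nanog lay between -3.56 and -4.17. Of 3108 comparisons over 241 named genes, 1 lost its call: Rhox1 under DESeq2 (log2 fold change 0.70, adjusted p = 0.0704), and 25 named genes were not tested with the filter at 1 FPKM. Counts per list moved by over 1.5 times in 30 of 90 cases with limma on log2(FPKM + 1), in 20 of 90 with the filter at 1 FPKM, and in 0 to 3 under each other alternative. A split without chromosome 8, chosen after seeing the data, gave 2949 genes higher and 1980 lower. No scaling moved the median of all genes by 0.1 or more on the log2 scale. Of the called genes, 69 have an FPKM ratio of the other sign. The counts limit only genes of low level, and line, passage and culture cannot be told apart from genotype at any depth.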
